A study of Mus musculus with 32 samples.

Results

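The MHC class II antigen presentation genes were followed across tumors and cultures of MC38, a mouse colon adenocarcinoma cell line. The group was chosen by name and holds 10 of the 22329 genes measured. They are Ciita, H2-Aa, H2-Ab1, H2-Eb1, H2-DMa, H2-DMb1, H2-DMb2, H2-Oa, H2-Ob and Cd74, and all 10 were found. The study sequenced polyA RNA of a parental MC38 line and of a line called MC38-resistant, which resists anti-PD-1, an antibody that blocks a T cell checkpoint receptor. Both lines were grown under the skin of C57BL6/J mice, which gave 13 tumors of the parental and 12 of the resistant line, and in culture, which gave 2 parental and 5 resistant libraries. All 4 groups were untreated, so no sample was exposed to the antibody here. The age and sex of the mice, the number of clones in the resistant line and the way it was made resistant are not given in the sources used here. The hosts are immunocompetent, so a tumor library mixes RNA of MC38 cells with RNA of host cells. In such bulk samples, fewer cells of a type and less RNA per cell cannot be told apart.

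MHC class II molecules are pairs of an alpha and a beta chain that show peptides from endosomes to CD4 T cells. Dendritic cells, B cells and activated macrophages carry them constitutively or after stimulation, and other cells can make them when interferon gamma switches on Ciita, the coactivator on which class II transcription depends. The invariant chain, encoded by Cd74, fills the binding groove until endosomal proteases cut it, after which the DM proteins exchange its remnant for peptide and the DO proteins hold DM back.

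Class II promoters are known for an X1 box, bound by the RFX complex, and a Y box, bound by NF-Y, to which Ciita is recruited. The stretches below are shown because these short boxes are what the members are known to share. They come from the RefSeq promoter table of build GRCm38.p6, which holds 250 bases before to 50 bases after each start and matched 7 of the 10 members. Capitals mark the Y box letters ATTGG and, where found upstream of them, the X1 letters, which are AG, any 2 bases, AC, any 2 bases and ATG. All 6 stretches lie upstream of the annotated start, on chromosome 17, and each is written 5′ to 3′ on the gene's own strand.
H2-Eb1, chr17:34305763-34305817, plus strand: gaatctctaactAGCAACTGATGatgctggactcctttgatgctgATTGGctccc
H2-DMb1, chr17:34153085-34153139, plus strand: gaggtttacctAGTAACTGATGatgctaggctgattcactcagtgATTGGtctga
H2-Ob, chr17:34238803-34238857, plus strand: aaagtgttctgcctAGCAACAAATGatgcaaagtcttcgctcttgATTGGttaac
H2-Aa, chr17:34287862-34287916, minus strand: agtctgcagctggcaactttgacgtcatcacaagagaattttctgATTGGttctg
H2-Oa, chr17:34092291-34092345, plus strand: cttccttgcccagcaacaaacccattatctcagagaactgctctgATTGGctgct
H2-DMb2, chr17:34145114-34145168, plus strand: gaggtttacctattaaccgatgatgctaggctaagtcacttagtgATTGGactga

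The X1 letters stood upstream of the Y box letters in H2-Eb1, H2-DMb1 and H2-Ob, with 22, 23 and 20 bases between them. That arrangement, searched on both strands with 5 to 40 bases between the boxes, was present in 0.113% of 32851 promoters, against 37.4% for ATTGG alone and 3.09% for the X1 letters alone. Each match is a description of letters, and where the X1 letters were not found it says only that they are not in the stretch shown. The H2-Oa promoter held the X1 letters elsewhere, on the gene's strand but not in that arrangement. The 2 annotated starts of H2-DMa differed, with ATTGG on the gene's strand in 1 of the 2 promoters.

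Levels are given in TPM, the usual measure of a gene's share of all transcripts in a library after correction for transcript length, so that levels of different genes can be compared. The deposited values are estimates without read counts. How deeply a library was sequenced is therefore unknown, and intervals for counting error are not given. Between 10470 and 13308 genes reached 1 TPM per library. Tumor and culture libraries carry different name series in the labels, so the setting and the library series cannot be told apart. Colon epithelial markers were nearly absent, and 7 of 8 (Epcam, Krt8, Krt18, Krt20, Vil1, Cdx2 and Cdx1) averaged under 1 TPM in both tumor groups, so the labelled epithelial origin was not visible in these markers. Ptprc, the pan-leukocyte gene CD45, lay between 14.5 and 53.7 TPM in parental tumors, between 19.7 and 50.3 TPM in resistant tumors, and at 0.147 TPM or less in every culture. The tumor libraries also differed in the balance of GC-rich and GC-poor transcripts. For their GC index, the log2 level of each gene was taken relative to its mean over all tumors. The index is the median of these values over GC-rich genes minus that over GC-poor genes, so it compares tumors with each other. It ran from -0.27 to 0.83 in parental tumors and from -0.54 to 0.24 in resistant tumors, and it exceeded 0.5 in 4 parental tumors.

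**Figure D1:**
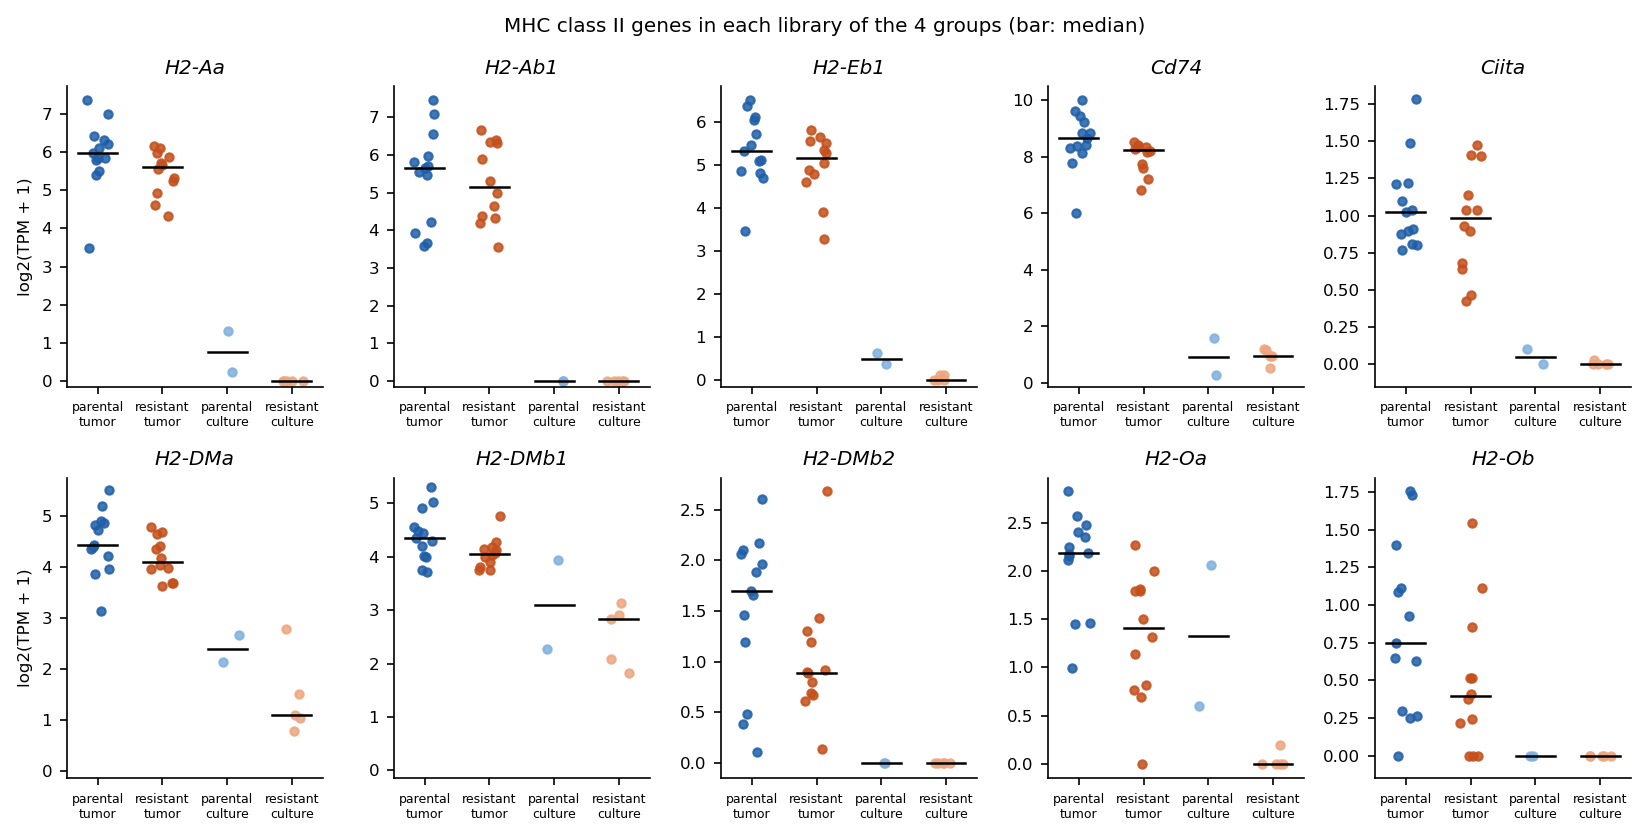
Each panel plots 1 class II gene on a log2(TPM + 1) axis with its own scale; points are libraries and bars are group medians. The peptide-binding chains and Cd74 are high in tumors, Ciita is low there, with medians of 1.03 and 0.977 TPM, and all of them are low or at 0 in the 2 parental and 5 resistant cultures, while H2-DMa and H2-DMb1 keep a measurable level in culture.

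In tumors, Cd74 stood far above the other members and the peptide-binding chains came next. Parental tumors held a mean of 459.5 TPM of Cd74, 70.6 of H2-Aa, 58.9 of H2-Ab1, 46.2 of H2-Eb1, 23.2 of H2-DMa and 21.1 of H2-DMb1. The low members there were H2-Oa at 3.54 TPM, H2-DMb2 at 2.22, Ciita at 1.15 and H2-Ob at 0.918. The order in resistant tumors was the same except that H2-Ab1, at 46.8 TPM, and H2-Aa, at 46.1, changed places. Between neighbours in this order, the ranges over tumors overlapped everywhere except between H2-DMb1 and H2-Oa in both lines, and between Cd74 and H2-Ab1 in resistant tumors. Cd74 alone made up 66.8% of the summed mean levels of the 10 members in parental tumors and 61.8% in resistant tumors. Cd74 was above H2-Aa in each of the 25 tumors.

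Resistant tumors were compared with parental tumors with limma on log2(TPM + 1), and genes at or above 1 TPM in at least 12 tumors entered the test. A gene was called at a Benjamini-Hochberg adjusted p below 0.05 over all 12095 genes tested. H2-Oa was the single member called, and it was lower in resistant tumors. No member rose. The other 8 tested members had point estimates below 0 without passing the test, and H2-Ob was too low to be tested. Thus 1 of 9 tested members was called lower, where 13.9% of all genes tested were called lower, and 0 of 9 were called higher, where 16.3% of all genes were. At an unadjusted p below 0.05, 2 of the 9 passed, H2-Oa and H2-DMb1. The median difference of the 9 members was -0.38 on the log2 scale and that of all genes tested was 0.04, and 45.5% of all genes tested had a negative difference. A difference on this scale understates the change of low genes.

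Ciita, the coactivator of class II genes, ran from 0.701 TPM through a median of 1.03 to 2.44 TPM in parental tumors and from 0.342 through 0.977 to 1.78 TPM in resistant tumors. The lines overlapped over most of that span, and 8 of 12 resistant tumors lay inside the parental range. Its difference was -0.11 ± 0.14 (SE) on the log2 scale with a 95% interval from -0.40 to 0.19 (limma, adjusted p = 0.597). Exons of Ciita overlap those of Dexi on the opposite strand, and whether reads were assigned by strand is not given in the sources used here.

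The peptide-binding chains did not pass the test in tumors. H2-Aa, the alpha chain of the I-A molecule, ran from 10.2 TPM through a median of 61.4 to 164 TPM in parental tumors and from 19.1 through 48.1 to 70.5 TPM in resistant tumors. Every resistant tumor lay inside the parental range and below the parental mean of 70.6 ± 38.7 TPM (SD, n = 13). The difference was -0.48 ± 0.29 (limma, adjusted p = 0.207). H2-Ab1, the beta chain of I-A, ran from 11.1 through 49.4 to 175 TPM in parental tumors and from 10.8 through 34.7 to 99.4 TPM in resistant tumors. The lines overlapped over most of that span, and the difference of -0.19 ± 0.42 had the widest interval of the tested members, from -1.06 to 0.68 (limma, adjusted p = 0.772). H2-Eb1 encodes the beta chain of the I-E molecule, whose alpha chain is not made in C57BL/6 mice, and no row for that alpha chain was used here. Its levels ran from 10.1 through 39.3 to 90.9 TPM in parental tumors and from 8.76 through 35.0 to 55.6 TPM in resistant tumors. The lines overlapped, with 11 of 12 resistant tumors inside the parental range (limma, -0.38 ± 0.29, adjusted p = 0.338).

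Cd74, the invariant chain, showed the widest gap in means among the abundant members without passing the test. It ran from 62.9 TPM through a median of 406 to 1028 TPM in parental tumors and from 111 through 298 to 366 TPM in resistant tumors. All 12 resistant tumors lay below the parental mean, and also below the parental median, yet inside the parental range, since parental tumor 3 was lower than any of them. The difference was -0.60 ± 0.30 with an interval from -1.21 to 0.01 (limma, adjusted p = 0.131). Without parental tumor 3, Cd74 was called at -0.82 (limma, adjusted p = 0.00794) and H2-Aa at -0.69 (limma, adjusted p = 0.02). Parental tumor 3 had the lowest Ptprc of all tumors, at 14.5 TPM.

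The DM genes, which edit the bound peptides, were also called in neither direction. H2-DMa ran from 7.72 through 20.4 to 44.6 TPM in parental tumors and from 11.3 through 16.1 to 26.5 TPM in resistant tumors, with every resistant tumor inside the parental range (limma, -0.32 ± 0.20, adjusted p = 0.234). H2-DMb1 ran from 12.1 through 19.5 to 38.6 TPM and from 12.4 through 15.6 to 26.1 TPM, and 11 of 12 resistant tumors lay below the parental median (limma, -0.33 ± 0.16, adjusted p = 0.116). H2-DMb2, a near copy of H2-DMb1, ran from 0.0763 through 2.24 to 5.07 TPM and from 0.103 through 0.859 to 5.43 TPM. Resistant tumor 2 held the highest H2-DMb2 of all tumors, while the other 11 resistant tumors lay below the parental median. Its difference was -0.50 ± 0.27 (limma, adjusted p = 0.159), and without resistant tumor 2 it was -0.65 and called (limma, adjusted p = 0.0441). H2-DMb1 shares 37.6% of its windows of 31 bases with H2-DMb2, and H2-DMb2 shares 34.4% with H2-DMb1, so the split of reads between them is uncertain. Exons of H2-DMa overlap those of Brd2 on the opposite strand, with the same limit as for Ciita.

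H2-Oa and H2-Ob encode the chains of DO, the inhibitor of DM. H2-Oa ran from 0.997 TPM through a median of 3.53 to 6.09 TPM in parental tumors and from 0 through 1.65 to 3.80 TPM in resistant tumors. The lines overlapped, but 11 of 12 resistant tumors lay below the parental median and 1 was listed at 0. The means were 3.54 ± 1.40 TPM (SD, n = 13) and 1.74 ± 1.14 TPM (n = 12). The difference was -0.78 ± 0.23 with an interval from -1.25 to -0.32 (limma, adjusted p = 0.00965), and it was called without any single tumor, with adjusted p between 0.00321 and 0.0194. H2-Oa overlaps exons of BC051537 on the opposite strand. H2-Ob ran from 0 through 0.676 to 2.38 TPM in parental tumors and from 0 through 0.314 to 1.91 TPM in resistant tumors. It was listed at 0 in 1 parental and 3 resistant tumors and got no test.

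DO is best known from B cells, and B cell and macrophage markers moved with the line as well. In the B cell list of 6, Cd79a, Cd79b and Cd22 were lower in resistant tumors (3 of 4 tested). Of all genes tested, 13.9% were lower. Cd79a, for example, stood at 8.50 ± 3.20 against 1.34 ± 0.761 TPM. Ms4a1, which encodes the B cell antigen CD20, averaged 0.250 TPM over the parental tumors and 0.0815 TPM over the resistant tumors. It was listed at 0 in 3 of 13 parental and 8 of 12 resistant tumors. The summed B cell list ran from 36.3 to 63.2 TPM in parental tumors, from 24.6 to 53.6 in resistant tumors, and from 18.6 to 31.6 TPM in the cultures. Most of that sum was Pax5, whose mean was 32 in the parental and 37.2 TPM in the resistant tumors (limma, 0.21 ± 0.11, adjusted p = 0.179) and 18.2 and 26.7 TPM in the cultures. Cd79a averaged 1.53 TPM in resistant cultures, so the sum does not measure B cells alone. In the macrophage list, 8 of 10 tested markers were lower and Mertk was higher, against 13.9% lower and 16.3% higher of all genes tested. The summed macrophage level ran from 310 to 1257 TPM in parental and from 337 to 609 TPM in resistant tumors. In the dendritic cell list, Batf3 and Ccr7 were lower and Zbtb46 higher among 5 tested of 10, against the same shares of all genes. Its summed level ran from 10.7 to 50.4 TPM in parental and from 19.5 to 48.8 TPM in resistant tumors. Batf3 was also lower in resistant than parental culture (limma, -1.26, adjusted p = 0.0419), as was Cd68 of the macrophage list (-1.53, limma adjusted p = 0.0142). Zbtb46 was higher there without being called (limma, 0.64, adjusted p = 0.0941), and Ccr7 was too low to be tested. These markers therefore do not measure host cells alone. H2-Oa itself stood at 0.514 and 3.17 TPM in the parental cultures and at 0.142 TPM or less in the resistant cultures. The parts of B cells, macrophages, dendritic cells and MC38 cells in the H2-Oa difference were not tested. With Ptprc as a covariate, H2-Oa was still called lower, at -0.69 (limma, adjusted p = 0.0233), and no other member was called. In that fit, 2320 of 12095 genes tested were lower and 3052 were higher.

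Which members were called in tumors varied with the fit. With the GC index as a covariate, 4 members were lower in resistant tumors, where 1814 of 12095 genes tested were lower. They were H2-Ab1 at -1.12 (limma, adjusted p = 0.00539), H2-DMa at -0.66 (0.00648), H2-DMb2 at -0.83 (0.0218) and H2-Oa at -0.84 (0.0137). Without the 4 parental tumors whose index exceeded 0.5, 5 members were lower, where 1626 of 12175 genes tested were lower. The 5 were H2-Aa at -0.76, Cd74 at -0.69, H2-DMa at -0.63, H2-DMb2 at -0.79 and H2-Oa at -0.96 (limma, adjusted p between 0.00354 and 0.0268). Parental tumor 3, with an index of 0.57, is among those 4, and leaving it out alone already called Cd74 and H2-Aa, neither of which was called with the GC index as a covariate. H2-Oa was called in each of these fits.

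**Figure D2:**
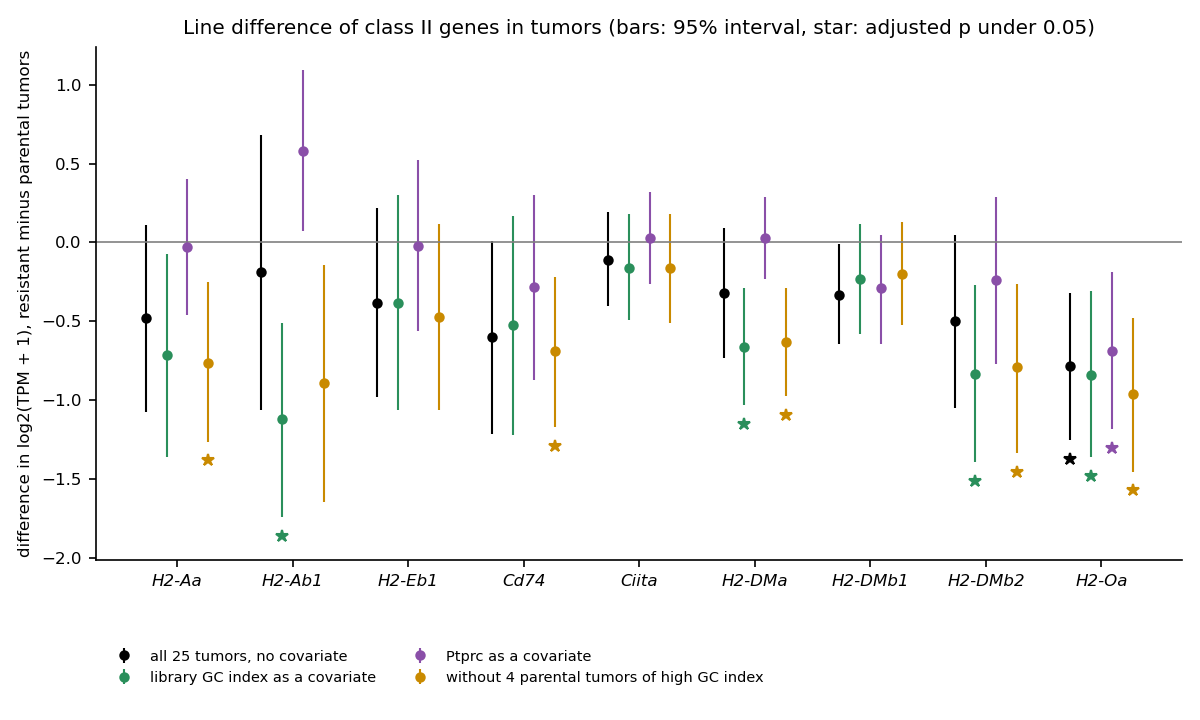
The vertical axis is the limma difference in log2(TPM + 1), resistant minus parental tumors, for the 9 tested members, with 95% intervals, and a star marks an adjusted p under 0.05; colors are 4 fits. H2-Oa is starred in all 4, and H2-Ab1 runs from -1.12 with the GC index to 0.58 with Ptprc as a covariate.

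H2-Aa and H2-Ab1 encode the partner chains of the same I-A molecule, and their ratio split the tumors. In 17 of the 18 tumors with a GC index of 0.1 or below, the log2 level of H2-Ab1 minus that of H2-Aa lay between -0.25 and 0.49, with resistant tumor 11 apart at -1.13. In 6 of the 7 tumors with a higher index it lay between -2.26 and -0.85, with parental tumor 3 apart at 0.17. In parental tumor 7, H2-Aa stood at 56.9 TPM and H2-Ab1 at 11.1 TPM, while in parental tumor 5 they stood at 61.4 and 55.3 TPM. The other ratios moved less or the opposite way. Cd74 minus H2-Aa had a median of 3.06 above the index of 0.1 and of 2.37 at or below it, and H2-Eb1 minus H2-Aa had medians of -0.27 and -0.65. The median GC content of the annotated transcripts was 57.5% for H2-Ab1, 51.4% for H2-Aa, 55.4% for H2-Eb1 and 56% for Cd74. The dividing index was chosen after these values were seen, and the part of the GC index in the ratio was not tested.

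**Figure D3:**
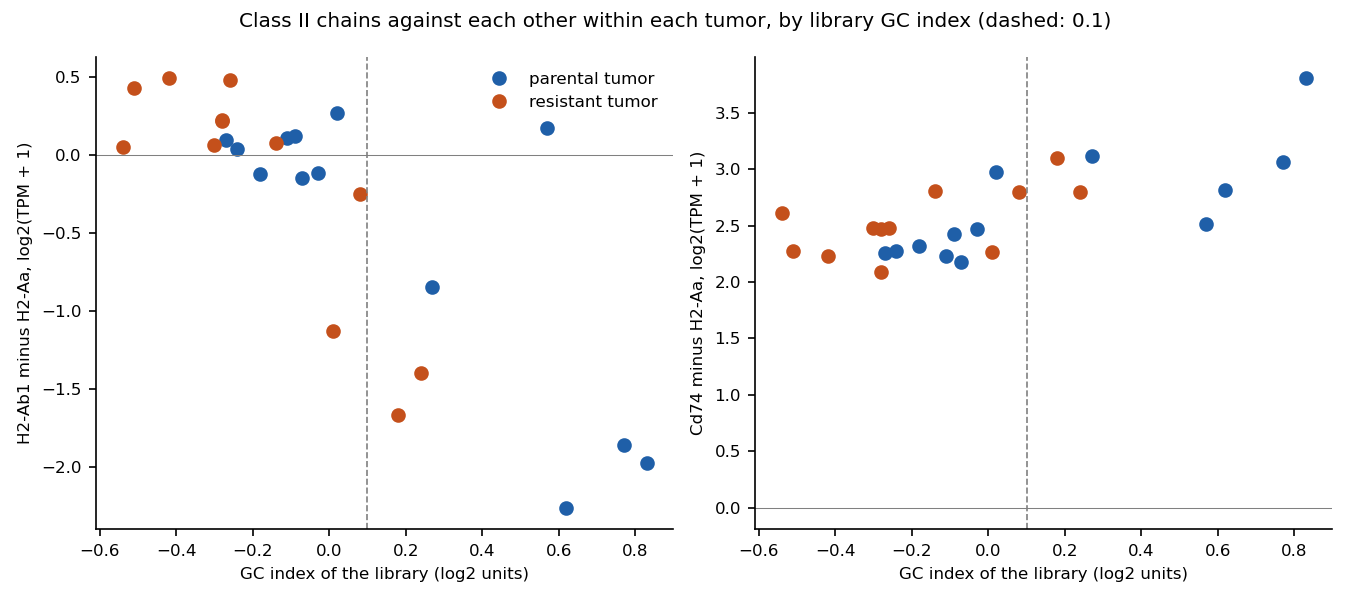
The horizontal axis is the GC index of each tumor library and the vertical axes are log2(TPM + 1) differences between members of the same tumor, H2-Ab1 minus H2-Aa at left and Cd74 minus H2-Aa at right; points are tumors by line and the dashed line is an index of 0.1. H2-Ab1 falls to -2.26 relative to H2-Aa at high index, while Cd74 relative to H2-Aa is not lower there.

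Tumor by tumor, some of the abundant members ranked alike and others did not. Parental tumor 10 held the highest H2-Aa, H2-Ab1, H2-Eb1 and H2-DMa of the 25 tumors and also the highest Ptprc. Parental tumor 3 held the lowest H2-Aa, H2-DMa and Cd74, but the fifth highest H2-DMb1, at 22.6 TPM. Parental tumor 2, with the highest GC index at 0.83, ranked first for Cd74 and H2-DMb1 but 20 of 25 for H2-Ab1 and H2-DMa. Pearson's r between H2-Aa and H2-Eb1 across tumors was 0.91 in parental and 0.97 in resistant tumors, and between H2-Eb1 and Cd74 it was 0.96 and 0.89. Between the partner chains H2-Aa and H2-Ab1 it was 0.69 and 0.70, between H2-Ab1 and H2-Eb1 0.44 and 0.60, and between H2-Ab1 and Cd74 0.35 and 0.40. H2-DMb1 stood apart in parental tumors, with r of -0.01 to its partner H2-DMa and -0.03 to H2-Ab1, against 0.58 and 0.60 in resistant tumors. These coefficients describe 13 and 12 libraries that share the members' scaling and GC balance, and no test of them was made.

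The relation of H2-Ab1 to 6 genes was tested within each line, which gave 12 relations. H2-Ab1 followed Ptprc in parental tumors with r = 0.85 (rho = 0.80, permutation p = 0.00015 and 0.00153, adjusted 0.0018 and 0.00918, n = 13). In resistant tumors r was also 0.85 (rho = 0.89, permutation p = 0.00044 and 0.00021, adjusted 0.00264 and 0.00252, n = 12). Without the 2 tumors farthest from the median of Ptprc, r was 0.81 and 0.89 and passed (permutation, adjusted p = 0.0178 and 0.0127). On ranks, rho was 0.69 and 0.82 there and did not pass the adjustment (permutation, adjusted p = 0.09 and 0.0654). Adgre1, the macrophage marker F4/80, reached r = 0.68 in parental tumors (rho = 0.65, permutation p = 0.00598 and 0.0186, adjusted 0.0239 and 0.0558), but 0.49 without the 2 farthest tumors, so that relation rests on those samples. The remaining 9 relations, with Ciita, Itgax, Flt3 and Ifng in both lines and with Adgre1 in resistant tumors, did not pass the adjustment on r. Of these, Flt3 in parental tumors passed on ranks alone, with rho = -0.69 (permutation p = 0.0118, adjusted 0.0474). Flt3 averaged 0.554 TPM in these tumors. Its rho was -0.75 without the 2 farthest tumors, -0.28 after quantile normalization and -0.24 without the tumors of GC index above 0.1. None of these 3 passed the adjustment (permutation, adjusted p = 0.0654, 0.385 and 0.637). Ciita had r = 0.53 and 0.55 in parental and resistant tumors (permutation p = 0.0591 and 0.0657, adjusted 0.0986 for both). After quantile normalization, r to Ciita was 0.89 and 0.74 and passed on r in both lines (permutation, adjusted p = 0.00024 and 0.0244), and on ranks in parental tumors alone (adjusted p = 0.00504 and 0.0667).

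Tumors with a high GC index were low in H2-Ab1, so the relations were also computed without the 7 tumors whose index exceeded 0.1, and again with H2-Aa in place of H2-Ab1; both were chosen after the data were seen. Without those 7, r to Ptprc was 0.79 in 8 parental tumors (permutation, adjusted p = 0.064) and 0.85 in 10 resistant tumors (adjusted p = 0.0176). In the same tumors, r to Ciita was 0.89 in parental (permutation, adjusted p = 0.0187) and 0.65 in resistant tumors (adjusted p = 0.117), and r to Itgax was 0.75 in resistant tumors (rho = 0.87, permutation, adjusted p = 0.0176 and 0.0134). H2-Aa gave r to Ptprc of 0.80 in parental and 0.67 in resistant tumors (permutation, adjusted p = 0.0146 and 0.029), and to Ciita of 0.71 and 0.77 (adjusted p = 0.0246 and 0.0159). None of the 12 relations of H2-Aa passed the adjustment without the 2 farthest tumors. There r to Ptprc was 0.33 in parental tumors, a relation that rests on those tumors, and 0.62 in resistant tumors, while r to Ciita was 0.68 and 0.54.

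**Figure D4:**
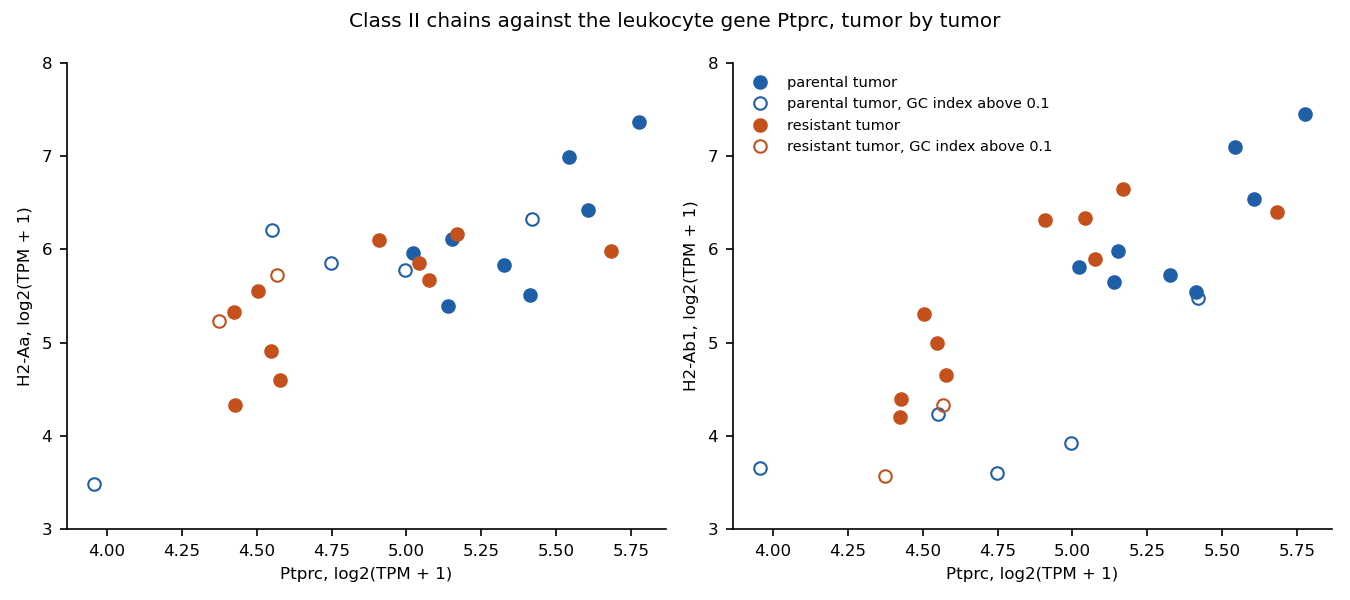
Both axes are log2(TPM + 1), with Ptprc on the horizontal and H2-Aa (left) or H2-Ab1 (right) on the vertical axis; points are tumors, open where the GC index exceeded 0.1. H2-Ab1 rises with Ptprc in both lines (r = 0.85 in each), and the open points lie low for H2-Ab1.

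The genes whose pattern was most like the class II core (H2-Aa, H2-Ab1, H2-Eb1 and Cd74) were sought among 10045 genes averaging 5 TPM or more in tumors. Likeness was the lower of the within-line r to the averaged, standardized core over 13 and 12 tumors. The 10 likest that are no members were Tifab, H2-Q6, Il21r, Ctsh, Zbtb46, Itgax, Kctd12, Cd3e, F11r and Neurl3, with a likeness from 0.84 for Tifab to 0.72 for Neurl3. Ctsh encodes a lysosomal cathepsin, Itgax the dendritic and myeloid integrin CD11c, Zbtb46 a transcription factor of classical dendritic cells, and Cd3e a chain of the T cell receptor complex. Zbtb46 reached 3.81 TPM and Ctsh 14.7 TPM in cultures, while Itgax stayed at 0.207 TPM or less and Cd3e at 0. H2-DMa ranked 26 and H2-DMb1 ranked 513, while Ptprc ranked 16.

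In culture, most of the class II genes were at or near 0, and Cd74, H2-DMa and H2-DMb1 were above 0 in every library. H2-Ab1, H2-DMb2 and H2-Ob were listed at 0 in all 7 cultures, and H2-Aa in all 5 resistant cultures. Ciita stood at 0 and 0.0762 TPM in the parental cultures, at 0.0212 TPM in resistant culture 4 and at 0 in the other resistant cultures. Housekeeping genes were not at 0 in any library, in a check of 10 of them. H2-DMa stood at 3.36 and 5.33 TPM in parental cultures and at 5.81, 1.04, 0.724, 1.82 and 1.14 TPM in resistant cultures. Resistant culture 1 lay above both parental cultures, and the other 4 lay below them. H2-DMb1 stood at 3.81 and 14.3 TPM in parental cultures and at 7.80, 6.17, 2.53, 3.23 and 6.56 TPM in resistant cultures, so the parental pair spanned most of the resistant values. Cd74 stood at 0.196 and 2.0 TPM in parental cultures and at 0.930, 0.926, 0.42, 1.29 and 1.21 TPM in resistant cultures, all between the parental pair.

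Ciita, H2-Aa, H2-Oa, Cd74, H2-DMa and H2-DMb1 were all higher in parental culture 2 than in parental culture 1, and H2-Eb1 was lower. H2-Aa stood at 0.171 and 1.49 TPM, H2-Eb1 at 0.552 and 0.294 TPM, and H2-Oa at 0.514 and 3.17 TPM in parental cultures 1 and 2. In the resistant cultures, H2-Eb1 reached 0.0926 TPM at most, and H2-Oa was at 0.142 TPM in replicate 3 and at 0 in the other 4. The 3.17 TPM of H2-Oa in parental culture 2 lay close to the parental tumor median of 3.53 TPM, while Ptprc in that culture was 0.0441 TPM. For H2-Aa, H2-Eb1 and H2-Oa, both parental cultures lay above all 5 resistant cultures, at levels mostly under 1 TPM. How many of all genes were separated like this was not counted, so no line difference is read from it. None of these 3 genes reached 1 TPM in 2 cultures, so they were not tested.

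Of the 10 members, Cd74, H2-DMa and H2-DMb1 could be tested between the cultured lines, and 0 of 3 were called (limma), where 14.2% of the 11201 genes tested were called in either direction. At an unadjusted p below 0.05, 0 of the 3 passed. The differences were 0.03 ± 0.39 for Cd74 (interval from -0.84 to 0.90), -0.96 ± 0.50 for H2-DMa (-2.07 to 0.16) and -0.54 ± 0.49 for H2-DMb1 (-1.64 to 0.56), with limma adjusted p of 0.979, 0.231 and 0.506. Without resistant culture 1, H2-DMa was called lower at -1.29 (limma, adjusted p = 0.0175). Without parental culture 1, H2-Aa and H2-Oa passed the filter only through parental culture 2, the lone parental library left, so nothing is read from their calls there. Separate cultures are not stated in the labels. The p-values in culture therefore reflect only how far these libraries differ among themselves, and that spread may be technical.

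Tumors held far more class II RNA than cultures of the same line. In the parental line, 8 of 10 members were called higher in tumors, where 16.1% of the 14348 genes tested were called higher, and H2-Oa and H2-Ob were not called (limma, adjusted p = 0.188 and 0.147). Ciita, H2-Ab1, H2-Eb1, H2-DMb2 and H2-Ob reached 1 TPM in neither parental culture. They entered the test through the tumors alone, so a difference above 0 was close to fixed in advance for them. The differences were 7.67 ± 0.65 for Cd74, 5.17 ± 0.60 for H2-Aa, 4.86 ± 0.53 for H2-Eb1, 2.09 ± 0.42 for H2-DMa, 1.29 ± 0.40 for H2-DMb1 and 1.02 ± 0.27 for Ciita on the log2(TPM + 1) scale. H2-Ab1 and H2-DMb2 were called as well, and no fold is given since they were listed at 0 in culture. The call of H2-DMb1 (limma, adjusted p = 0.0252) was lost without parental culture 1, where its difference was 0.46 (0.638), and those of Ciita, H2-DMa and H2-DMb2 were lost there too. H2-DMb2 (limma, adjusted p = 0.0404) was called in only 5 of the 15 fits that left out a library, with adjusted p between 0.0125 and 0.246.

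In the resistant line, all 8 tested members were called higher in tumors, where 35.3% of the 12312 genes tested were called higher, and each of the 8 was called without any single library. Ciita, H2-Aa, H2-Ab1, H2-Eb1 and H2-Oa reached 1 TPM in no resistant culture. They entered the test through the tumors alone, so a call of higher was close to fixed in advance for them. Cd74 differed by 7.04 ± 0.23, H2-Eb1 by 4.93 ± 0.31, H2-DMa by 2.73 ± 0.26, H2-DMb1 by 1.51 ± 0.19, H2-Oa by 1.29 ± 0.29 and Ciita by 0.96 ± 0.19 on the log2(TPM + 1) scale. H2-Aa and H2-Ab1 were called, with no fold since they were listed at 0 in resistant culture. H2-DMb2 and H2-Ob were too low to be tested. All 10 macrophage markers and all 5 monocyte markers were called higher in tumors than in culture in both lines, and the part of host cells in the class II difference was not tested. Of these markers, 8 macrophage and 4 monocyte genes averaged under 1 TPM in the cultures of both lines, so the same limit holds for them. The median difference of all genes tested was 0.21 in the parental and 0.18 in the resistant line, and -0.04 and -0.10 after quantile normalization, which moved the share of higher calls among all calls from 72.9% to 52.1% and from 70.2% to 43.7%.

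Whether the line difference itself differed between tumors and culture was tested in 1 fit over all 32 libraries. Of the 10 members, 0 were called (limma), where 4.01% of 15061 genes tested were, and 0 passed at an unadjusted p below 0.05. The estimates lay between -0.63 ± 0.66 for Cd74 and 0.64 ± 0.50 for H2-DMa. For H2-Oa, the estimate was 0.51 ± 0.51 with an interval from -0.52 to 1.54 (limma, adjusted p = 0.755). These intervals are wide, and a p that misses the threshold does not show that the line difference was alike in both settings.

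Other genes of the pathway were taken from lists chosen by name. Among 9 regulators of class II transcription, Nfyb, Creb1 and Crebbp rose in resistant tumors, where 16.3% of all genes tested rose, and 6 were not called, and the median difference was 0.22 against 0.04 for all genes. Nfyb, a subunit of the Y box factor NF-Y, rose from 22.9 ± 4.06 to 31.9 ± 8.33 TPM (limma, 0.44 ± 0.13, adjusted p = 0.00923). Crebbp, a histone acetyltransferase that works with Ciita, rose from 38.8 ± 12.1 to 56.9 ± 8.58 TPM. None of the 3 was called with the GC index as a covariate, where their adjusted p lay between 0.0635 and 0.724 (limma). The uncalled Nfyc, another NF-Y subunit, stood at 43.7 ± 11.4 and 47.4 ± 7.98 TPM. The uncalled Nfya and Ep300, a relative of Crebbp, differed by 0.00 ± 0.13 and -0.08 ± 0.20 on the log2 scale.

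The endosomal proteases, which cut antigens and the invariant chain, had the most calls of the 6 pathway lists. All 7 measured were tested, 5 fell in resistant tumors and 0 rose, where 13.9% of all genes tested fell and 16.3% rose, and the median difference was -0.47 against 0.04 for all genes. Ifi30 was not analysed here. Ctsh fell from 131 ± 28.2 to 69.7 ± 14.3 TPM (limma, -0.90 ± 0.13, adjusted p = 8.68e-06), and Lgmn, an asparaginyl endopeptidase, from 248 ± 104 to 153 ± 50.1 TPM (-0.65 ± 0.18, limma adjusted p = 0.0077). Ctss, the cathepsin known for trimming the invariant chain in professional presenting cells, fell from 344 ± 130 to 216 ± 61.6 TPM (-0.59 ± 0.22, limma adjusted p = 0.0403). Ctsb and Ctsl fell by 0.47 and 0.35 on the log2 scale, and Ctsd and Ctsz were not called, at -0.29 and -0.25. Lgmn was not called with the GC index as a covariate (limma, -0.24, adjusted p = 0.127) and Ctss was not called with Ptprc as a covariate (limma, -0.19, adjusted p = 0.205). In culture, Ctsh was also lower in the resistant line, at 12.4 ± 3.23 against 1.76 ± 0.934 TPM, while Ctss stayed under 2 TPM in every culture. Of 6 proteases tested in culture, 5 had negative differences, where 51.6% of all genes tested did, and Ctsh alone was called. Ctsl averaged 6272 and 4272 TPM in parental and resistant cultures, above its tumor means of 3425 and 2619 TPM. Ctsb averaged 110 and 80.6 TPM in these cultures. Most macrophage markers given above moved the same way as the proteases in tumors. The parts of host cells and of MC38 cells in the protease difference were not tested.

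Among 4 genes of class II turnover, March8, a ubiquitin ligase whose family marks class II for removal from the surface, rose from 21.1 ± 6.62 to 30.5 ± 4.14 TPM (limma, 0.56 ± 0.13, adjusted p = 0.00194). Cd83, which protects surface class II from such ligases, fell from 2.39 ± 1.42 to 1.15 ± 0.451 TPM (limma, -0.58 ± 0.19, adjusted p = 0.0196), and was not called with Ptprc as a covariate (limma, -0.30, adjusted p = 0.0969). Sppl2a, a protease of the invariant chain remnant, and March1 were not called, at 0.52 ± 0.29 and -0.07 ± 0.16. Among the 3 costimulatory genes, Cd40 rose from 22.8 ± 11.7 to 56.3 ± 14.6 TPM (limma, 1.38 ± 0.23, adjusted p = 5.55e-05). Cd40 was also present in cultures, at 9.71 ± 7.87 TPM in the parental and 19.7 ± 4.37 TPM in the resistant line, whereas Cd80 and Cd86 were listed at 0 there and were not called in tumors.

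On the T cell side, 0 of 3 tested genes passed (limma), 1 of them at an unadjusted p below 0.05. Cd4, the coreceptor for class II, stood at 3.75 ± 3.16 and 1.85 ± 1.29 TPM (limma, -0.67 ± 0.26, adjusted p = 0.0553), Cd3e at 8.03 ± 5.22 and 5.79 ± 2.65 TPM, and Lag3, which also binds class II, at 3.97 ± 1.67 and 4.27 ± 1.60 TPM. In the chain from interferon gamma to Ciita, Jak1 and Jak2 rose, where 16.3% of all genes tested rose, and 5 of 7 genes were not called. Jak2 rose from 17.0 ± 2.22 to 27.7 ± 2.72 TPM (limma, 0.67 ± 0.08, adjusted p = 7.52e-07), with every resistant tumor above every parental tumor. How many of all genes separated the tumors like this was not counted, so nothing is read from that separation. Irf1, which acts on the inducible Ciita promoter, its relative Irf2 and the receptor chain Ifngr1 were not called in tumors, at -0.11 ± 0.14, -0.07 ± 0.14 and 0.31 ± 0.19, and Ciita itself was not called, as given above. Between the cultured lines, 3 of 6 tested genes of this chain were higher in the resistant line, where 14.2% of all genes were called in either direction. They were Jak1 at 0.59, Irf2 at 0.58 and the receptor chain Ifngr2 at 1.15 (limma, adjusted p = 0.0249, 0.0253 and 0.013). Jak2 was not called there, at -0.06 (limma, adjusted p = 0.89). Ifngr2 missed the threshold in tumors, at 0.60 (limma, adjusted p = 0.0502).

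**Figure D5:**
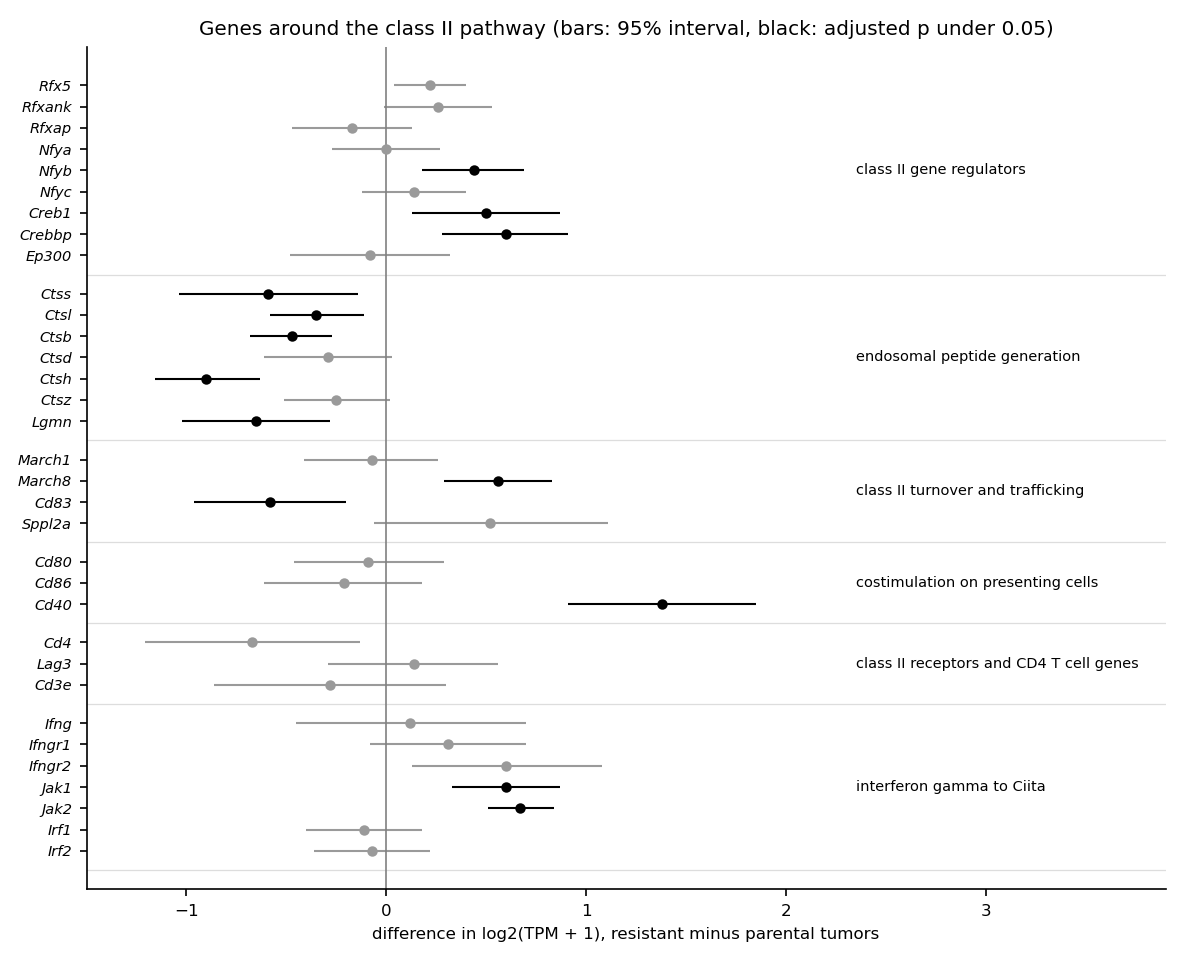
The horizontal axis is the limma difference in log2(TPM + 1), resistant minus parental tumors, with 95% intervals, for the tested genes of 6 lists named at right; black marks an adjusted p under 0.05. The endosomal proteases lie below 0 (5 of 7 called), while Cd40 at 1.38 and Jak2 at 0.67 lie above it.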

How the data were processed

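PolyA RNA was sequenced in 32 libraries, extracted with Qiagen kits and prepared with KAPA RNA HyperPrep kits, per the labels' protocols. The authors deposited 1 table of TPM by mouse gene symbol, and every column was used. Per the submitters' processing notes, STAR and the human build GRCh38 were named, without version or role; the quantifier, annotation, read assignment by strand and filters are not given in the sources used here. Low TPM values therefore carry an unknown counting error, and the spread between libraries is the error given.

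The members, lists and tests were chosen with earlier results of these data known. Groups came from the labels, and replicates were numbered by accession. A separate limma fit (version 3.58.1, R 4.3.3) of log2(TPM + 1) was made for each comparison from the libraries it concerns, with moderation by mean level. Tests were two-sided and adjusted by Benjamini-Hochberg over every gene at 1 TPM or more in n libraries, n being the size of the smaller group (2 in the fit over all libraries). Correlations used permutation tests of 100000 resamples, two-sided, adjusted over 12 relations. Named were all members, list genes called in tumors with up to 3 uncalled per list by mean TPM, and the 10 likest genes; markers are named beside results they touch. Some genes of these pathways are not reported here. The GC index used 2515 genes with a transcript GC fraction above 0.55 and 756 below 0.42, from GENCODE mouse transcripts, which gave a value for 98.6% of 10046 genes considered. The remaining steps ran in Python 3.11.15 (numpy 2.4.6, pandas 2.3.3, matplotlib 3.10.9).

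The fits were tested on simulated data. Changes were placed only in genes above a set mean level, and the noise was normal. Ciita, H2-DMb2, H2-Oa and H2-Ob in tumors, and the members tested between cultured lines, lay below that level. The shares recovered therefore do not hold for them. Of 2-fold and 4-fold changes, 95% and 99% were recovered for the tumor comparison (12095 genes), 48% and 93% for culture (11201 genes), 44% and 86% for parental tumors against culture (14348 genes), and 87% and 99% for the resistant line (12312 genes). The alternatives changed the pseudocount (0.1), the filter (none, or 5 TPM), the scaling (quantile, or median of ratios), the moderation (robust), the weights (per library) and the libraries fitted (all in 1 fit, or each left out), or added a 2-fold minimum and, in tumors, Ptprc or the GC index as a covariate or leaving out 4 parental tumors of high GC index.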

Additional observations from a re-analysis of the deposited data

Results flagged for a closer look

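Among the groups of 4 to 10 libraries, which here is the resistant culture alone, 6 members had any spread and 3 had a library far from the other 4. H2-DMa stood at 5.81 TPM in resistant culture 1, and at 0.724 to 1.82 TPM in the others; chance flags about 1 in 20 such groups. Ciita stood at 0.0212 TPM in resistant culture 4 and H2-Oa at 0.142 TPM in resistant culture 3, and both were at 0 in the others, where any value above 0 stands apart by construction and that chance does not apply.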

How the results depend on the processing

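The number of members lower in resistant tumors, 1 with the settings of the report, was 0 with a filter at 5 TPM, which leaves H2-Oa untested, and 0 with a 2-fold minimum. It was 3 with array weights, 4 with the GC index as a covariate, 5 without the 4 parental tumors of high GC index, and 1 to 3 when single tumors were left out. Of 12095 genes tested, 1958 were lower with array weights. The number of members lower in resistant culture, 0, was 1 without a filter and 0 to 2 when single libraries were left out; the 2 passed the filter only through the lone parental culture left, which is assumed to vary like the others. The 8 members higher in parental tumors than in culture were 4 to 8 with single libraries left out, with 4 without parental culture 1. With a pseudocount of 0.1 the tumor difference of H2-Oa was -1.29. Signs turned in tumors for Ciita with quantile normalization (0.0017) and, with Ptprc as a covariate, for Ciita (0.03), H2-Ab1 (0.58) and H2-DMa (0.03). In culture, Cd74 turned with array weights (-0.0039) and spanned -0.64 to 0.69 with single libraries left out, and H2-DMb1 spanned -1.38 to 0.29. H2-Oa in parental tumors against culture was -0.06 after quantile normalization. In the test of the line difference between settings, Ciita turned to 0.12 with a pseudocount of 0.1 and 0.16 with quantile normalization, and with single libraries left out H2-Aa spanned -0.26 to 0.83, H2-Eb1 -0.09 to 0.23, H2-DMb1 -0.62 to 1.05, H2-Oa -0.22 to 1.24 and Cd74 -1.29 to 0.04. The number of relations past the threshold, 3, was 5 with quantile normalization, 7 with H2-Aa and 0 with H2-Aa without the 2 farthest tumors. For Flt3 in resistant tumors r turned to 0.04 with a pseudocount of 0.1, 0.40 with quantile normalization, 0.51 with H2-Aa, 0.06 with H2-Aa without the 2 farthest tumors and 0.29 without the tumors of GC index above 0.1. In parental tumors, r turned to -0.05 for Ifng without the 2 farthest tumors and to -0.05 for Itgax with H2-Aa without them. The causes were not tested. Of all single values, 353 of 396 kept direction and side of the threshold under these alternatives, and 823 of 852 with a library left out. No paired analysis was possible because the labels carry no replicate numbers shared between groups. Depth is unknown, so low members such as H2-Ob carry an unknown counting error.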
